A study of Mus musculus with 20 samples.

Results

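The comparison described here is the first step of mouse development, from the oocyte to the 1-cell embryo. It is a difference between 8 of the 20 arrays of the study, the 4 titled as oocytes and the 4 titled as 1-cell embryos, over the 22626 probe sets that are not array controls. The other 12 arrays hold 2-cell embryos, 8-cell embryos and blastocysts, with 4 arrays each, and enter the same fit, where they add to the filter and to the estimate of spread. Per the labels, total RNA of each sample went through 2 rounds of amplification by in vitro transcription before it was put on the MOE430A array. The groups are given by stage alone, with no strain, genotype, treatment, maturation state of the oocytes or hour after fertilization. The labels do not give how many oocytes or embryos were pooled, and nothing in them says that the 4 arrays of a stage came from separate collections, so p-values measure only the spread between these arrays.

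A fully grown mouse oocyte has stopped most transcription and carries a store of maternal mRNA. After the egg matures and is fertilized, part of this store is translated, part is shortened at its poly(A) tail and destroyed, and the embryo's own genome is switched on in earnest only at the 2-cell stage. Between oocyte and 1-cell embryo, a transcript level can therefore change largely through loss of RNA, through new polyadenylation or through the first weak transcription of the zygote, and an array of amplified RNA does not tell these apart.

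The arrays of the 2 stages were set apart by their control probe sets as well as by their genes. Arrays of 1 stage correlated at 0.931 to 0.969 over probe sets and arrays of different stages at 0.828 to 0.899. Every array had been scaled to the same trimmed mean, which was 150.05 to 150.07 with 2% of the values cut at each end. The middle probe set of 18S ribosomal RNA, a transcript with no poly(A) tail, read 226.2, 143.2, 151.7 and 261.4 on the oocyte arrays. It read 15355, 12300, 11006 and 11998 on the 1-cell arrays, 66.4 times as high, and averaged 534.8 to 851.2 at the 3 later stages. The 18S probe sets of the 5′ and 3′ parts were 23.1 and 25.1 times as high at the 1-cell stage. Probe sets for the bacterial bioB and cre spike-ins, which are added in fixed amounts at hybridization, were 2.04 and 1.83 times as high on the 1-cell arrays. The B1 repeat was 1.97-fold lower and the B2 repeat 1.81-fold higher. A second B2 probe set was 2.0 times as high but its values overlapped (exact permutation p = 0.0571, adjusted 0.0857). In each of the other 7 measures named so far the 4 values of both stages did not overlap (exact two-sided permutation test of 4 against 4 arrays, p = 0.0286, the smallest that 70 splits allow, and 0.049 adjusted over 12 control measures). The 3′ to 5′ signal ratios of beta-actin (p = 0.371) and Gapdh (p = 0.914) did not pass the same exact test. The part of the 18S and spike-in differences in the gene results was not tested.

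**Figure D1:**
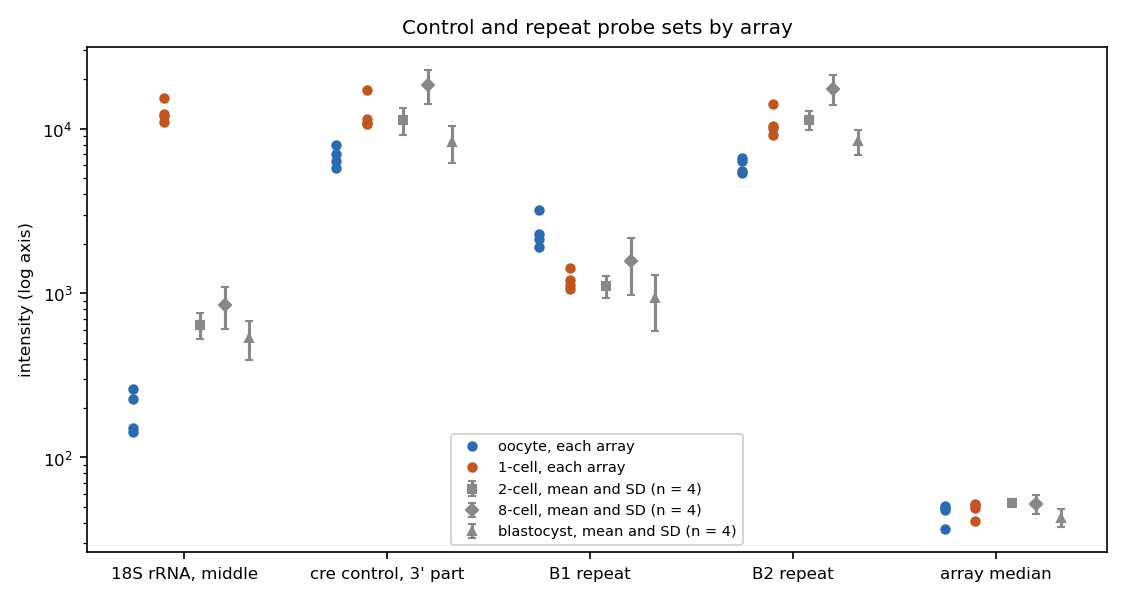
Intensity (log axis) of control and repeat probe sets on each of the 4 oocyte and 4 1-cell arrays, with the mean and SD of 4 arrays for the 2-cell, 8-cell and blastocyst stages. The middle 18S probe set lies between 11006 and 15355 on the 1-cell arrays and at or under 261.4 on the oocyte arrays, while the array medians of both stages overlap.

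Markers of other cells were examined next. In bulk RNA, fewer cells of a type and less RNA per cell cannot be told apart. The summed intensity of 26 cumulus and granulosa markers ran from 1139 to 1747 on oocyte arrays and from 886.1 to 1265 on 1-cell arrays. For 27 sperm and spermatid markers the sums were 1142 to 1681 and 1493 to 1768, for 14 oviduct markers 507.2 to 649.4 and 553.9 to 795.5, and for 16 blood cell markers 241.4 to 464.0 and 334.6 to 530.6. No marker was at 0 on any of the 8 arrays, and 27 of the 83 lay under the intensity filter of 33.0 on all 8. With 1 probe set per gene, 0 of the 16 tested cumulus markers rose and 1 fell. That 1 was Gja1, a gap junction gene that oocytes and embryos also express. Among the other markers, 1 of 2 Lox probe sets was called higher (1.35). Lower calls were held by 1 of 2 Col4a1 probe sets (-1.25) and 1 of 3 Kitl probe sets. Of the 17 tested sperm markers, Tcp11 had a log2 change of 0.54 and Ldhc, a lactate dehydrogenase known from germ cells of both sexes, one of -2.38. The call of Tcp11 ended when any 1 of 6 arrays was left out, all but oocyte array 2 and 1-cell array 3 (0.40 to 0.63 over all 8 such fits), and its change was -0.39 under the spike-in scaling described below. Of the 10 oviduct markers, Foxj1 was called lower (-0.76), a call that ended without oocyte array 1 (-0.78), oocyte array 4 (-0.59), 1-cell array 2 (-0.71) or 1-cell array 3 (-0.56). Ltf, another oviduct marker, read 69.8, 75.1, 67.6 and 50.7 in oocytes and 171.8, 109.7, 83.5 and 90.7 at the 1-cell stage. Its values did not overlap, yet its change of 0.66 ± 0.62 was not called (-0.26 under spike-in scaling). The shared estimate of spread takes in the 8-cell arrays, where Ltf had an SD of 445 and the oviduct marker Ovgp1 one of 1495. Of the 8 blood markers, 0 were called by limma. Over all genes 31.9% were called, and in the lowest quintile (a group of 1 in 5) of mean level 6.1% were higher and 5.61% lower. Under spike-in scaling 9 of the 16 cumulus, 5 of the 17 sperm, 3 of the 10 oviduct and 3 of the 8 blood markers were lower and 0 higher. The part of other cells in the results was not tested.

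Of 17193 probe sets above the filter, 5400 differed between the stages at an adjusted p under 0.05 in limma's moderated test (31.4%), with 2760 higher at the 1-cell stage (16.1%) and 2640 lower (15.4%). The counts were nearly even, but the sizes were not. Among calls of at least 2-fold, 818 were higher and 1602 lower, and among calls of at least 8-fold, 0 were higher and 105 lower. The largest rise was 2.41 on the log2 scale and the largest fall -6.49. The median change was 0.85 over the called rises and -1.16 over the called falls. All changes are relative to the common trimmed mean of the arrays, and over all tested probe sets the median was 0.11. With 1 probe set per gene, 10245 genes were tested, 15.3% were called higher and 16.6% lower, and the median was 0.088. The counts of each gene list below are to be read against these shares. In the highest quintile of mean level the shares were 35.8% higher and 28.4% lower. The 4 values of each stage did not overlap in 31.4% of probe sets and in 31.7% of genes, whether called or not.

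The number of calls in each direction depended on how the arrays were scaled. When each array was scaled to its bioB, bioC, bioD and cre spike-ins, the median of all probe sets moved by -0.83 and 7778 were called, 49 higher (0.285%) and 7729 lower (45.0%). All 2640 falls stayed called and 49 of the 2760 rises did, while 1 of the rises was called lower. This scaling moves changes downward, so that the falls stayed called is no sign of their stability. Quantile normalization kept 2485 of the falls and 2592 of the rises, and centring on the array median kept 2575 and 2135. Calls were 51.11% higher on the deposited scale, 0.63% under spike-in scaling, 52.08% under quantile normalization and 44.13% under centring on the array median. With 1 probe set per gene, 0.166% of genes were higher and 48.7% lower under spike-in scaling, and of all the gene lists below the growth factor list and the actin list each had 1 member higher and the others 0. A rise below is therefore a rise relative to the average transcript on the array, and the change under spike-in scaling is given beside the rises described with values.

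Upp1, which encodes uridine phosphorylase, read 499.3, 469.7, 647.2 and 742.6 in oocytes and 4.5, 12.3, 18.9 and 7.9 at the 1-cell stage. All 1-cell values lay under the filter, and the log2 change of Upp1 was -4.72 ± 0.24 (SE, n = 4 arrays per stage; limma, adjusted p = 2.7e-14). Cox17, a copper chaperone for cytochrome c oxidase, went from 1389, 1384, 1318 and 2064 to 41.4, 55.3, 41.1 and 79.9, a change of -4.55 ± 0.26. Bola2, a cytosolic iron-sulfur cluster protein gene, had a change of -4.01 ± 0.21, and 4 of its 5 tested probe sets were called lower. Prmt7, a protein arginine methyltransferase, changed by -3.88 ± 0.25, and Nudt9, an ADP-ribose hydrolase gene, by -3.61 ± 0.33. For these genes the values of both stages were far apart on every array. The added constant of 12.15 holds back such changes where 1-cell values are low, so the log2 figures are smaller than the ratios of the intensities. Without detection calls, how far such low 1-cell values lie above background is not known.

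Genes of the cytosolic ribosome fell as groups. Of the 34 listed small subunit genes 22 were tested, with 17 lower, 1 higher and a median log2 change of -2.11. Of the 48 listed large subunit genes 23 were tested, with 21 lower, 0 higher and a median of -2.09. Under spike-in scaling 21 and 22 were lower. The start sites of 6 of these genes are shown because many ribosomal protein mRNAs begin with a run of pyrimidines through which their translation is controlled. The first 3 are the deepest falls among those that hold CTTTC near the start, and the last 3 are the members with the highest changes. All were chosen after their values were seen. Each window runs 30 bases either side of the RefSeq start in GRCm38.p6, on the gene's strand, with CTTTC in capitals.
Rpl35, chr2:39005102-39005161, minus strand: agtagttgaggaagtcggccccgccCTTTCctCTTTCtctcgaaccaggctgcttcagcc
Rps26, chr10:128626477-128626536, minus strand: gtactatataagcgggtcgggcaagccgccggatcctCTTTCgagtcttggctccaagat
Rpl38, chr11:114668550-114668609, plus strand: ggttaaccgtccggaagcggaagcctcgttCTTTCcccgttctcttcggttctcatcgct
Rps27l, chr9:66946056-66946115, plus strand: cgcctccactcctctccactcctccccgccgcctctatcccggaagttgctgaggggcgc
Rpl37, chr15:5116583-5116642, plus strand: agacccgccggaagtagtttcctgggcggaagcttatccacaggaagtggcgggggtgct
Rpl12, chr2:32961682-32961741, plus strand: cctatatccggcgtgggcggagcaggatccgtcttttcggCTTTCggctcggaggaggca
The changes of Rpl35, Rps26 and Rpl38 were -3.55, -2.97 and -2.86, and those of Rps27l, Rpl37 and Rpl12 were 0.70, 0.11 and 0.11.

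CTTTC was searched within 25 bases either side of the start, with the first promoter listed per gene. It stood on the gene's strand in 6.6% of all 27025 promoters and its reverse complement in 5.88%. Of 61 listed ribosomal protein genes with a promoter in the table, 31.1% held it. Within the tested ribosomal protein genes 12 of 40 held it, and within those called lower 27.3%. Over all genes it was 5.33% of those called lower, 5.17% of those not called and 5.68% of those called higher. The letters thus marked the ribosomal genes as a family and were about as frequent in genes that fell as in the rest.

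Rps20 read 1352, 1877, 1708 and 2368 in oocytes and 70.8, 103.7, 122.3 and 100.1 at the 1-cell stage, with no overlap. Rps4x, an X-linked small subunit gene, went from 3011, 3383, 3373 and 3864 to 202.8, 327.3, 419.2 and 454.8, a log2 change of -3.29 ± 0.20. Rpl7 changed by -3.64 ± 0.19 and all 3 of its probe sets were lower. Rpl41, which encodes the smallest protein of the ribosome, changed by -4.27 ± 0.44, and 2 of its 4 probe sets carried the call. Rps27l, a paralog of Rps27 that p53 is known to induce, was the member called higher (0.70 ± 0.21, and -0.33 under spike-in scaling). Its call ended without oocyte array 3 (0.59), and it is known less as a ribosome building block than as a stress gene. Ribosomal protein genes have many processed copies in the genome, so some of these probe sets may read more than 1 transcript.

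Genes of the mitochondrion that lie in the nucleus fell with them. Of 74 tested mitochondrial ribosomal protein genes, 49 were lower and 3 higher, with a median of -1.01. For respiratory complex I the counts were 29 lower and 1 higher of 33, with a median of -2.03. Complexes II and III had 8 lower and 2 higher of 13, complex IV with cytochrome c 10 lower and 0 higher of 14, and ATP synthase 13 lower and 0 higher of 18, with medians of -1.44, -1.12 and -1.02. Ndufa12, an accessory subunit of complex I, read 488.7, 518.3, 511.7 and 518.9 in oocytes and 13.5, 31.4, 24.2 and 22.5 at the 1-cell stage. This was a change of -3.92 ± 0.18 (limma, adjusted p = 5.01e-15), and all 3 of its probe sets were lower. Ndufv3, another accessory subunit, changed by -3.98 ± 0.27. Atp5o, a stalk subunit of ATP synthase, changed by -4.06 ± 0.25, and Uqcr11, a small subunit of complex III, by -3.57 ± 0.23. Mrpl22 and Mrpl39, proteins of the large mitochondrial ribosomal subunit, changed by -3.88 ± 0.26 and -3.48 ± 0.24. Slc25a4, the carrier that exchanges ADP and ATP across the inner membrane, changed by -2.57 ± 0.17.

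A few mitochondrial genes went the other way. Sdha, the catalytic subunit of complex II, read 554.7, 642.6, 736.1 and 753.9 in oocytes and 1297, 1635, 1464 and 1296 at the 1-cell stage, a change of 1.07 ± 0.21 that fell to 0.050 and lost its call under spike-in scaling. Vdac1, the main pore of the outer membrane, rose by 1.67 ± 0.20 with all 4 probe sets higher. Under spike-in scaling this change was 0.66 and stayed called (limma, adjusted p = 0.037), alone among the 4 probe sets. ND5, a complex I subunit encoded on mitochondrial DNA, read 277.6, 234.6, 279.4 and 239.5 in oocytes and 920.7, 1002, 960.2 and 745.9 at the 1-cell stage. The rise was 1.76 ± 0.16, and 0.76 under spike-in scaling (adjusted p = 0.0229). ND5 has the one tested probe set named for a mitochondrial gene, so it is 1 gene against the 33 nuclear genes of its complex.

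Fuel pathways moved less as groups, read against 16.6% lower and 15.3% higher over all genes. Of 14 tricarboxylic acid cycle genes, 7 were lower and 2 higher, and Mdh2, the mitochondrial malate dehydrogenase, changed by -3.80 ± 0.20 with both probe sets lower. Of 18 glycolysis and pyruvate genes, 3 were lower and 4 higher, with a median of 0.010. The 4 higher became 2 without oocyte array 2 or 1-cell array 1, 2 or 3 (2 to 5 over all 8 such fits) and under median centring. Pkm, pyruvate kinase, changed by -1.63 ± 0.31. Of 16 fatty acid oxidation genes, 4 were lower and 1 higher, and of 23 peroxiredoxin, thioredoxin and glutathione genes, 6 were lower and 2 higher. The 2 higher became 1 under median centring and in 6 of 8 fits that left out an array, all but those without oocyte array 2 or 1-cell array 4.

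**Figure D2:**
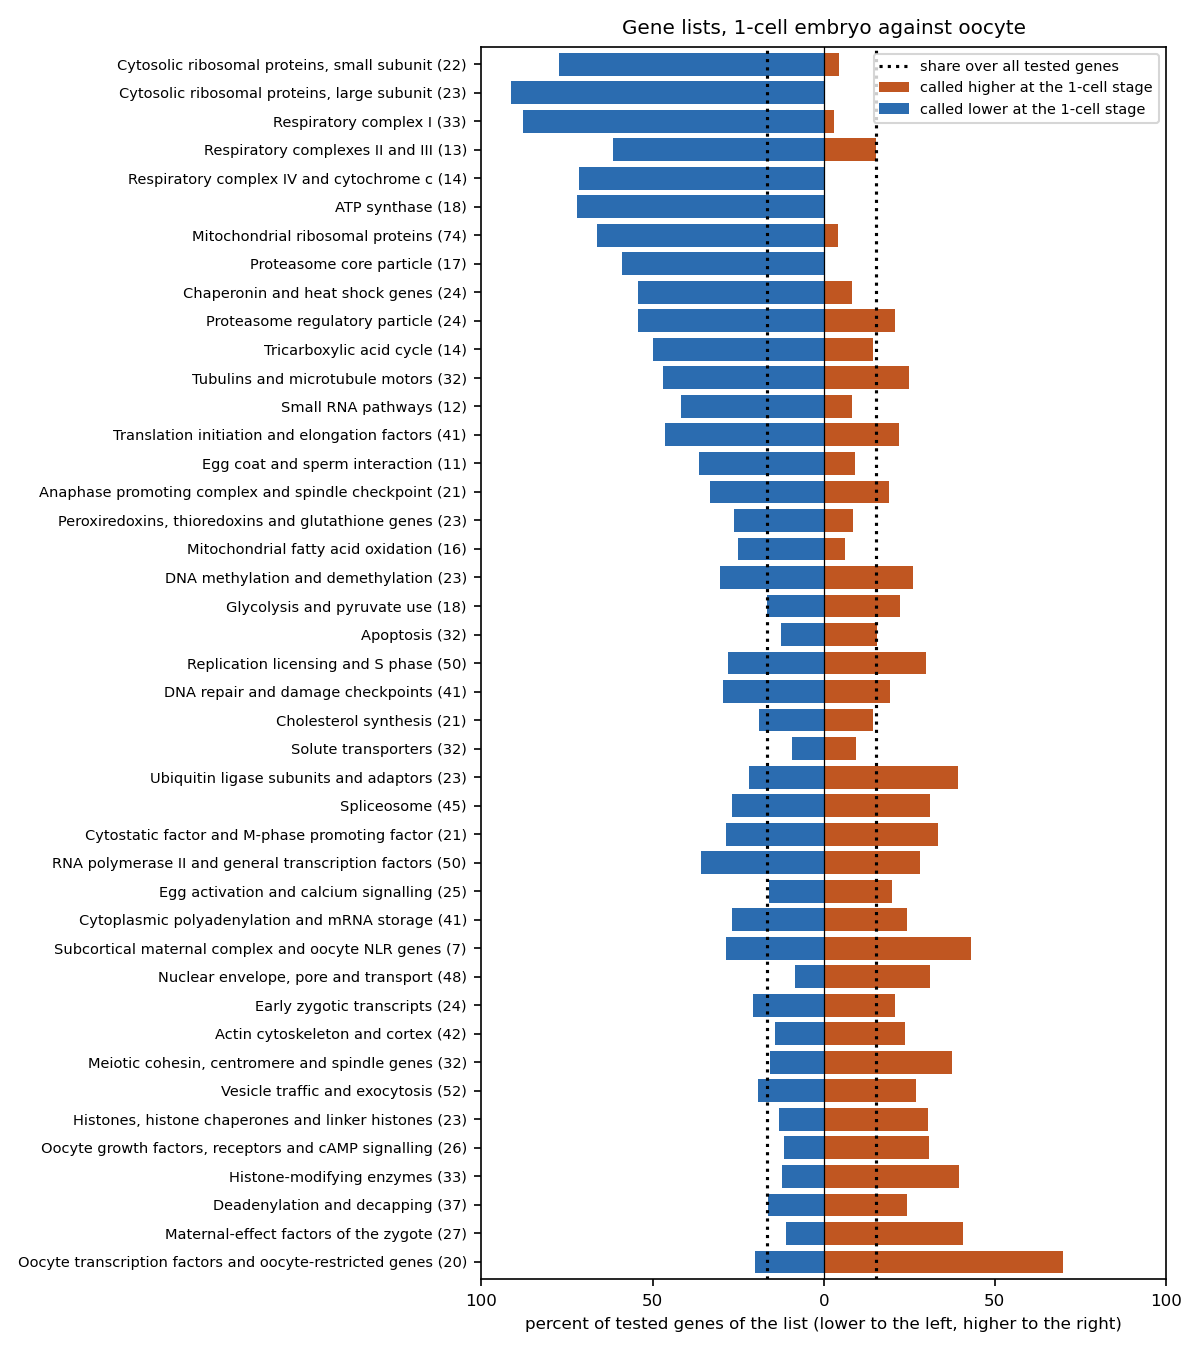
Percent of the tested genes of each of 43 pathway lists called lower (left) and higher (right) at the 1-cell stage, ordered by median log2 change, with the number tested in brackets. Dotted lines mark the shares over all 10245 genes, 16.6% lower and 15.3% higher. Ribosome, respiratory chain, ATP synthase and proteasome core lists lie at the top with over 58% lower, and the oocyte-restricted list at the bottom with 14 of 20 higher on the deposited scale, 5 under quantile normalization and 0 under spike-in scaling.

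Protein synthesis, folding and destruction gave the same picture in part. Of 17 genes of the proteasome core, 10 were lower and 0 higher, and of 24 genes of its regulatory particle, 13 were lower and 5 higher. Psmb1, a core subunit, read 623.4, 988.4, 653.1 and 834.9 in oocytes and 10.5, 34.6, 38 and 50.1 at the 1-cell stage, but 1 of its 3 probe sets carried the call. Psmd14, the lid's deubiquitinase, changed by -2.70 ± 0.18, while Psmd1, the largest base subunit, had a rise of 1.26 ± 0.15 that was 0.24 and not called under spike-in scaling. Of 24 chaperonin and heat shock genes, 13 were lower and 2 higher. Cct5, a subunit of the ring that folds actin and tubulin, went from 2412, 2552, 2350 and 2777 to 214.6, 352.4, 466.0 and 397.6, a change of -2.83 ± 0.19. Hspa4, a large heat shock protein gene, changed by -2.94 ± 0.19, but its other probe set was not called (-0.17). Hsp90aa1 had a change of 0.89 ± 0.19, which was -0.15 under spike-in scaling and not called under quantile normalization (0.34). Of its 3 probe sets 2 were higher. Of 41 translation factors, 19 were lower and 9 higher. Eif3c, a core subunit of the factor that holds the small ribosomal subunit, changed by -3.48 ± 0.38 with 3 of 4 probe sets lower. Eif4a1, the helicase of the cap complex, rose by 1.03 ± 0.16 with all 3 probe sets higher, and its change was 0.0031 under spike-in scaling.

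The oocyte's own products split. The zona pellucida, the egg coat laid down during oocyte growth, is no longer made after fertilization. Its 3 measured genes Zp1, Zp2 and Zp3 all fell, and all values of both stages were apart. Zp2 read 5259, 5633, 4827 and 5858 in oocytes and 592.6, 567.1, 558.2 and 611.0 at the 1-cell stage, a change of -3.18 ± 0.19, and Zp1 and Zp3 changed by -2.58 ± 0.19 and -2.23 ± 0.18. Of the 11 tested egg coat and sperm interaction genes, 4 were lower and 1 higher. The remaining fall was that of Cd9, a tetraspanin that the egg needs to fuse with sperm (-0.80 ± 0.20). Izumo1r, the egg's receptor for sperm Izumo1, was not called at -0.097 ± 0.28 (limma, adjusted p = 0.84) but was called at -1.12 under spike-in scaling. The rise was that of Oosp1, an oocyte-secreted protein gene (0.80 ± 0.17), with -0.24 under spike-in scaling and 0.13, not called, under quantile normalization.

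Genes of meiotic arrest and M phase gave falls and rises. Cytostatic factor, which holds the egg at metaphase, and the cyclin B kinase are both shut down by fertilization. Of 21 tested genes of these systems, 6 were lower and 7 higher (28.6% and 33.3%, against 16.6% and 15.3% over all genes). Mos, the kinase at the head of the cytostatic pathway, read 2838, 3013, 2588 and 3099 in oocytes and 1296, 1340, 1155 and 470.4 at the 1-cell stage. Cdk1, the mitotic kinase, went from 1590, 1767, 1043 and 1163 to 314.2, 324.0, 424.7 and 589.5, a change of -1.73 ± 0.18. Arpp19, an inhibitor of the phosphatase that opposes Cdk1, changed by -2.14 ± 0.19, though another of its 3 probe sets was called higher. Ccna2, cyclin A2, read 881, 936.9, 789.3 and 793.8 and then 2400, 2064, 2250 and 1777, a rise of 1.30 ± 0.15 with both probe sets higher and 0.28, not called, under spike-in scaling. Thus a cyclin and its kinase partner moved in opposite directions on the deposited scale.

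Of 21 genes of the anaphase promoting complex and spindle checkpoint, 7 were lower and 4 higher. Anapc7, a scaffold subunit, changed by -1.98 ± 0.20, and Cdc20, the activator, by 1.10 ± 0.15 with all 3 probe sets higher and 0.074 under spike-in scaling. Another Cdc20 probe set changed by 2.05 and stayed called higher under spike-in scaling (1.26; limma, adjusted p = 0.00108). Of 32 cohesin, centromere and spindle genes, 5 were lower and 12 higher. Tacc3, which stabilizes spindle microtubules, changed by -2.36 ± 0.25, and Kif2c, a microtubule depolymerase, by -1.57 ± 0.15. Of the 4 Kif2c probe sets 2 were lower, and the highest change among them was 0.41, not called. Of 32 tubulin and motor genes, 15 were lower and 8 higher. Tuba4a, an alpha tubulin, went from 5600, 5137, 5110 and 5779 to 687.0, 761.7, 997.6 and 935.7. The number of tubulin and motor genes called higher was 4 or 5 when any 1 array was left out and 3 under median centring, against 8 with all arrays.

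**Figure D3:**
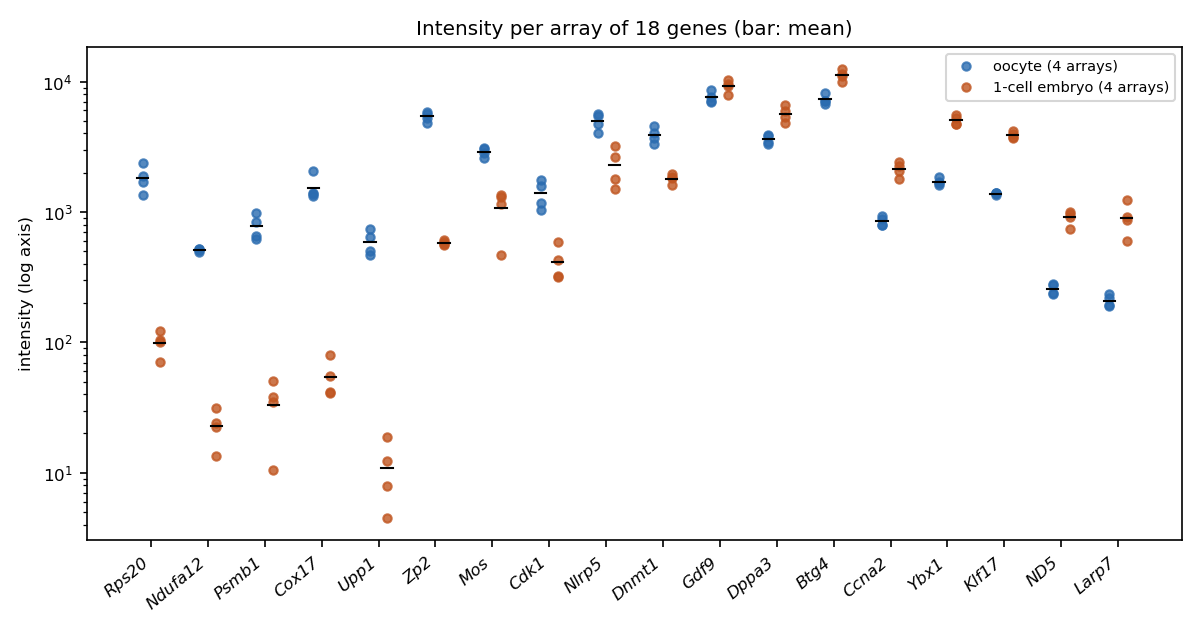
Intensity (log axis) of 18 genes on each of the 4 oocyte arrays (left point of each pair) and the 4 1-cell arrays (right point), with the mean as a bar. Rps20, Ndufa12, Psmb1, Cox17, Upp1 and Zp2 show the deep falls, and the values of Gdf9 overlap between the stages while Ccna2, Ybx1, Klf17, ND5 and Larp7 lie higher at the 1-cell stage.

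Genes for signals between the oocyte and its surroundings, and within it, are read against 15.3% higher and 16.6% lower over all genes. Of 26 growth factor, receptor and cAMP genes, 3 were lower and 8 higher, the latter 4 or 5 without oocyte array 1, 2 or 4 or 1-cell array 1 or 4 (4 to 8 over all 8 such fits). Gja4, the connexin that joins the oocyte to granulosa cells, changed by -1.14 ± 0.23. Bmp15, an oocyte growth factor, had a change of 0.84 ± 0.27, which ended as a call without oocyte array 4 (0.77) or 1-cell array 4 (0.67) and was -0.19 under spike-in scaling. Its partner Gdf9 had 0.28 ± 0.16, not called (adjusted p = 0.192), and a called -0.76 under spike-in scaling. Under quantile normalization the change of Gdf9 was -0.26, not called. Of 25 egg activation and calcium genes, 4 were lower and 5 higher, the latter 3 under median centring. Itpr2, a calcium release channel, read 1014, 1048, 756.1 and 1001 in oocytes and 2698, 2956, 3414 and 2334 at the 1-cell stage. That rise of 1.56 ± 0.28 was carried by 1 of 4 probe sets and was 0.54, not called, under spike-in scaling.

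Of 20 tested oocyte transcription factors and oocyte-restricted genes, 14 were higher and 4 lower, with a median of 0.79 on the deposited scale. That count of 14 fell to 5 under quantile normalization, and under spike-in scaling 0 were higher and 5 lower, with a median of -0.25. The falls were those of the transcription factors Figla, Nobox and Lhx8, which run the gene programme of the growing oocyte, and of Oas1c, an oocyte member of the oligoadenylate synthetase family. Figla, which activates the zona genes, read 143.7, 142.1, 149.2 and 143.4 in oocytes and 32.8, 24.3, 37.3 and 55.3 at the 1-cell stage. Nobox changed by -1.50 ± 0.34. Lhx8, named after its value was seen, changed by -0.60 and lost its call without oocyte array 4 (-0.54) or 1-cell array 2 (-0.52). Oas1c changed by -0.75 ± 0.24 and lost its call without oocyte array 4 (-0.70), 1-cell array 1 (-0.60) or 1-cell array 2 (-0.67).

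Factors that the mother supplies to the zygote also split. The subcortical maternal complex sits under the egg membrane and is needed for the first divisions. Of 7 tested genes of this complex and its NLR relatives, 2 were lower and 3 higher, and 1 was higher under quantile normalization. Nlrp5, its founding member, read 5666, 4699, 4062 and 5400 in oocytes and 1487, 1801, 2633 and 3184 at the 1-cell stage. Tle6, another core member, changed by -0.81 ± 0.20. Khdc1a, a KH-domain gene, had a rise of 1.46 ± 0.30 and 0.47, not called, under spike-in scaling. Of 27 tested maternal-effect genes, a list that holds Nlrp5 again, 3 were lower, Nlrp5 among them, and 11 higher. Ube2a, a ubiquitin-conjugating enzyme, changed by -2.23 ± 0.20. Zfp57, which guards imprinted methylation, went from 185.9, 167.5, 267.7 and 335.9 to 275.7, 636.8, 714.7 and 1018, a change of 1.33 ± 0.28 with overlapping values and 0.34, not called, under spike-in scaling. Ctcf, the insulator protein gene, changed by 1.26 ± 0.23 and by 0.25 under spike-in scaling. Dppa3, which protects maternal DNA methylation, had 0.63 ± 0.17, -0.40 under spike-in scaling and 0.24, not called, under quantile normalization.

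Genes that act on mRNA itself showed no common direction. Of 37 deadenylation and decapping genes, 6 were lower and 9 higher, or 5 higher under median centring. Btg4, the adaptor that brings the deadenylase to maternal mRNAs, read 6739, 8202, 7091 and 7147 in oocytes and 11515, 12384, 10997 and 9899 at the 1-cell stage, without overlap. Its change of 0.62 ± 0.23 (adjusted p = 0.0457) lost its call when any array other than 1-cell array 4 was left out, 7 of 8 such fits (0.57 to 0.67 over all), and was 0.54, not called, under median centring, -0.019 under quantile normalization and -0.42 under spike-in scaling. Cnot6l, a deadenylase, rose by 1.34 ± 0.20 with 3 of 4 probe sets higher, and its change was 0.31 and not called under spike-in scaling. Tob1, which links the deadenylase to its targets, changed by -2.28 ± 0.26. Of 41 polyadenylation and storage genes, 11 were lower and 10 higher. Papola, the nuclear poly(A) polymerase, read 536.4, 794.1, 773.2 and 671.5 and then 283.7, 260.0, 266.2 and 82.0. Ybx1, an mRNA-packaging protein gene, went from 1840, 1614, 1672 and 1691 to 5277, 5518, 4695 and 4697, a rise of 1.56 ± 0.14 that was 0.53 and not called under spike-in scaling. Its germ-cell relative Ybx2 was not called at 0.12 ± 0.29 (limma, adjusted p = 0.807). Pabpn1, the nuclear poly(A)-binding protein, changed by 1.23 ± 0.19 and by 0.19 under spike-in scaling. Cpeb1, which controls cytoplasmic polyadenylation in the oocyte, changed by -0.43 ± 0.16 and lost its call when any array other than 1-cell array 3 was left out, 7 of 8 such fits (-0.48 to -0.36 over all). Of 12 small RNA genes, 5 were lower and 1 higher, and Tarbp2, a Dicer partner, changed by -2.26 ± 0.27 with both probe sets lower.

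Chromatin genes moved in both directions. Of 33 histone-modifying enzymes, 4 were lower and 13 higher, and under spike-in scaling 12 were lower and 0 higher. The 4 lower became 2 without oocyte array 4 or 1-cell array 2 and under quantile normalization. Kdm6a, a demethylase of histone H3, read 739.3, 551.4, 872.2 and 887.1 in oocytes and 1999, 1957, 1841 and 1630 at the 1-cell stage, and was not called under spike-in scaling (0.26). Hdac1, a histone deacetylase, changed by -1.20 ± 0.18. Of 23 histone and histone chaperone genes, 3 were lower and 7 higher. H2ax, the variant marked at DNA breaks, changed by -1.76 ± 0.19. H1f8, the oocyte linker histone, had 0.76 ± 0.25 with overlapping values. Its call ended without oocyte array 3 (0.70), 1-cell array 1 (0.69) or 1-cell array 2 (0.62), and its change was 0.53 under quantile normalization, 0.68 under median centring and -0.28 under spike-in scaling, none of them called. Hira, which loads histone H3.3 on paternal DNA, was not called at 0.12 ± 0.24 (limma, adjusted p = 0.758), though its other probe set was called higher on the deposited scale and not under spike-in scaling. Of 23 DNA methylation genes, 7 were lower and 6 higher. Dnmt1, which copies methylation after replication, read 3998, 3318, 3715 and 4576 and then 1807, 1940, 1859 and 1603, with both probe sets lower. Dnmt3a, which sets new methylation in the oocyte, changed by 0.94 ± 0.25 and by -0.073 under spike-in scaling, and of its 5 probe sets 3 were higher and 1 lower.

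Genes for the first S phase moved both ways within the same machine. Of 50 replication genes, 14 were lower and 15 higher. Cdc6, which loads the replicative helicase, read 551.3, 555.2, 380.5 and 561.4 in oocytes and 88.5, 95.1, 69.2 and 110.2 at the 1-cell stage. Orc6, a subunit of the origin complex on which Cdc6 acts, read 1200, 1377, 1227 and 1442 and then 2767, 2921, 2904 and 2117, a change of 1.01 ± 0.16 that was -0.015 under spike-in scaling. Gmnn, geminin, an inhibitor of origin licensing, changed by 1.19 ± 0.18, and Rrm2, the small subunit of ribonucleotide reductase, by 1.15 ± 0.18. Under spike-in scaling they changed by 0.16 and 0.12, not called. Of 41 DNA repair genes, 12 were lower and 8 higher.

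Transcription and nuclear genes likewise held both directions. Of 50 genes of RNA polymerase II and the general factors, 18 were lower and 14 higher (36.0% and 28.0%). The shares over all genes were 16.6% and 15.3%. Ercc3, a helicase of TFIIH, changed by -2.81 ± 0.21, and Med8, a Mediator subunit, by -2.70 ± 0.19. Of 48 nuclear envelope, pore and transport genes, 4 were lower and 15 higher, and 8 were lower without 1-cell array 4. Nup133, a scaffold of the pore, changed by -2.42 ± 0.17 with all 3 probe sets lower, and Lbr, an inner membrane protein that binds lamin B, by -2.30 ± 0.22. Of 45 spliceosome genes, 12 were lower and 14 higher, or 6 higher under median centring.

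Of 24 tested early zygotic genes, transcripts known for genome activation, 5 were lower and 5 higher, or 20.8% each way against 16.6% and 15.3% over all genes. Under spike-in scaling 11 were lower and 0 higher. Zfp352, a zinc finger gene known from the 2-cell stage, read 29.6, 7.1, 12.6 and 19.8 in oocytes and 24.5, 11.7, 26.4 and 15.8 at the 1-cell stage, and averaged 1994 at the 2-cell stage. Hspa1b, a heat shock gene known as an early zygotic product, was not called at -0.16 ± 0.42 (limma, adjusted p = 0.827) but was called at -1.08 under spike-in scaling. Klf17, a Krüppel-like factor gene, read 1390, 1392, 1337 and 1397 in oocytes and 3728, 4154, 3676 and 3944 at the 1-cell stage. That rise of 1.48 ± 0.14 and the one of Nelfa, a pausing factor subunit (1.17 ± 0.17), were 0.45 and 0.14, not called, under spike-in scaling.

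In the cytoskeleton list of 42 actin genes, 6 were lower and 10 higher. Pfn1, profilin, which feeds actin monomers to filaments, read 19.5, 22.0, 37.4 and 57.1 in oocytes and 144.1, 163.8, 299.5 and 269.2 at the 1-cell stage. It had the largest rise that the naming rule took, 2.34 ± 0.33, and stayed called under spike-in scaling (1.51, adjusted p = 0.000532). Tmsb10, a thymosin that binds actin monomers, went the other way, from 2195, 2327, 2800 and 3877 to 121.5, 145.7, 302.5 and 463.7. Actb, beta-actin, changed by 1.01 ± 0.19 and by -0.0083 under spike-in scaling, and 1 of its 2 probe sets carried the call. Of 52 vesicle traffic genes, 10 were lower and 14 higher, of 32 transporters 3 and 3, of 32 apoptosis genes 4 and 5, of 21 cholesterol synthesis genes 4 and 3, and of 23 ubiquitin ligase genes 5 and 9. The apoptosis shares of 12.5% lower and 15.6% higher lay near the 16.6% and 15.3% over all genes. Transporters, at 9.38% each way, lay under them. Bcl2l10, a survival gene of the Bcl2 family with a high level in oocytes, read 7265, 7866, 7512 and 7037 and then 16227, 14328, 12425 and 13291. Its change of 0.92 ± 0.23 was -0.12 under spike-in scaling and 0.28, not called, under quantile normalization.

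The 49 rises that stayed called under spike-in scaling were examined as a set chosen by their values, so no test is given. Of these, 43 had 1 gene symbol and 24 had an oocyte mean under the filter of 33.0. The share of such dim probe sets among all called rises was not counted. Larp7, which binds the 7SK RNA that restrains transcription elongation, read 235.4, 191.8, 217.2 and 189.3 in oocytes and 1229, 906.9, 867.6 and 597.2 at the 1-cell stage, though its second probe set was called lower. Ccnl1, a cyclin linked to splicing, went from 321.6, 309.8, 275.7 and 339.3 to 1398, 1482, 1516 and 809.5. Nrp1, a co-receptor for semaphorins and VEGF, went from 72.9, 67.7, 37.4 and 75.5 to 244.0, 237.9, 254.9 and 290.6. Of its 3 probe sets 2 were higher on the deposited scale, and this one alone stayed called under spike-in scaling. Ern1, the sensor of unfolded proteins in the endoplasmic reticulum, went from 88.3, 81.0, 80.7 and 73.9 to 279.7, 265.2, 305.0 and 413.9. The other Ern1 probe set was not called on the deposited scale (0.61). Hoxa7, a homeobox gene, went from 37.3, 14.4, 34.8 and 68.2 to 142.5, 256.6, 200.5 and 174.2. In the probe sets shown for these 5 genes all 1-cell values lay above all oocyte values. Under spike-in scaling the log2 changes were 1.01 for Larp7, 0.97 for Ccnl1, 0.94 for Nrp1, 0.85 for Ern1 and 1.26 for Hoxa7. The constant of 12.15 was added after this scaling, so dim probe sets were shifted less and could stay called more easily. On the deposited scale the change was 2.09 for Hoxa7 (oocyte mean 38.67) and 2.01 for Larp7 (oocyte mean 208.4).

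Probe sets of 1 gene did not always give 1 answer. Of 3578 genes with at least 2 tested probe sets, 1955 were called in at least 1. All probe sets were higher in 241 of them and lower in 210, some were higher and the rest not called in 801, some were lower and the rest not called in 585, and in 118 the calls opposed each other. Camk2g, a subunit of the calcium-dependent kinase that ends meiotic arrest, is an example. One probe set read 998.4, 914.1, 1016 and 1013 in oocytes and 220.3, 233.4, 348.7 and 500.4 at the 1-cell stage. The other read 273.1, 322.7, 293.0 and 304.7 and then 855.6, 1174, 1323 and 1093, and stayed higher under spike-in scaling (0.83). Which transcript forms these probe sets read was not tested. In Srsf1, a splicing factor gene, one probe set changed by 1.34 ± 0.20 and another by -2.39 ± 0.19, and in Rpl13a, a ribosomal protein gene, its probe sets changed by 0.90 ± 0.21 and -2.08 ± 0.16. The higher probe sets of both genes were not called under spike-in scaling (0.42 and -0.11).

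The direction of a call went with the genomic length of the gene, introns included, which RefSeq's coordinates gave for all 10245 genes. This split was chosen after the data were seen. In the shortest quintile of genes, up to 7.08 kb, 20.8% were lower and 9.66% higher, and in the longest, from 62.0 kb, 10.1% were lower and 20.1% higher. Within the highest quintile of mean level the gradient was steeper. There the shortest quintile had 50.4% lower and 21.2% higher with a median of -0.53, and the longest 10.9% lower and 48.5% higher with a median of 0.49. Over all levels, the median of the longest quintile minus that of the shortest was 0.168, and 0.0896 over genes with 1 tested probe set. Within the highest quintile of level and without the ribosomal, respiratory, ATP synthase and proteasome lists the medians were -0.22 and 0.49. Under spike-in scaling the medians in the highest quintile of level were -1.54 and -0.53, in the same order. On the arrays themselves, the median log2 level of the longest quintile minus that of the shortest was 0.415, 0.351, 0.398 and 0.472 in oocytes and 0.528, 0.551, 0.597 and 0.510 at the 1-cell stage, without overlap. The share of genes called was larger at high levels, with 35.8% higher and 28.4% lower in the highest quintile of level against 6.1% and 5.61% in the lowest. Whether transcript length or amplification has a part in this was not tested.

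**Figure D4:**
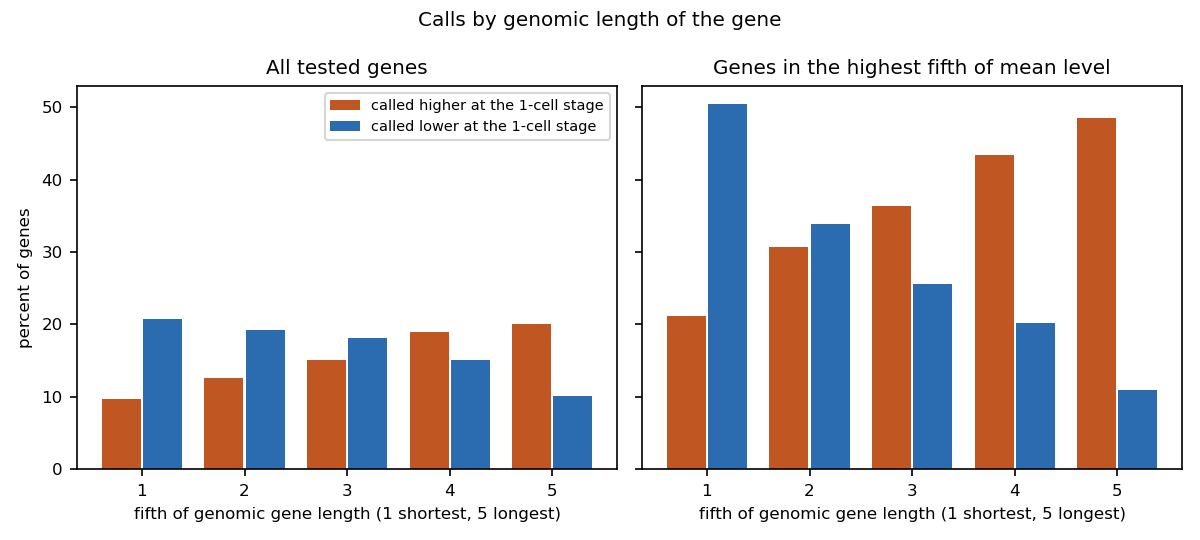
Percent of genes called higher and lower at the 1-cell stage by quintile of genomic gene length, over all 10245 genes (left) and over the highest quintile of mean level (right). Falls go down from 50.4% to 10.9% and rises go up from 21.2% to 48.5% from the shortest to the longest quintile on the right.

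The levels at the later stages do not enter the difference between oocyte and 1-cell embryo, although the 12 later arrays share the filter and the estimate of spread with it. From the 2-cell to the 8-cell stage 23.2% of probe sets were called higher and 25.2% lower. Of the 2760 probe sets that were higher at the 1-cell stage, 14.6% were higher and 50.6% lower, with a median log2 change of -0.53. Of the 2640 that were lower at the 1-cell stage, 42.8% were higher and 21.7% lower, with a median of 0.34. Of the 11793 not called, 2462 were higher and 2363 lower. From the 8-cell stage to the blastocyst, where 19.5% of all were higher and 25.5% lower, the groups were closer, with 22.4% higher and 28.5% lower among the first, and 29.4% and 21.2% among the second. In 2-cell and 8-cell embryos Rps20 averaged 2048 and 7059, and Ndufa12 116.6 and 734.9, both above their 1-cell values. Zp2 averaged 554.1 and 113.3, and Klf17 2984 and 422.6. The gap of -0.86 between the first medians was -0.28 under spike-in scaling. These shares are a description, and no test was run on them.

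**Figure D5:**
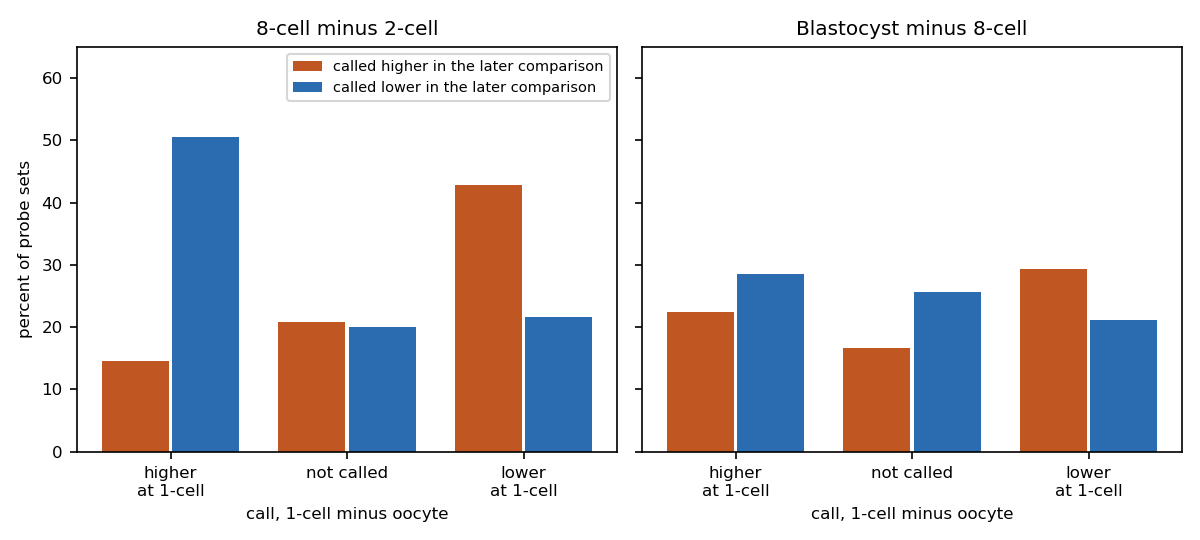
Percent of probe sets called higher and lower from the 2-cell to the 8-cell stage (left) and from the 8-cell stage to the blastocyst (right), grouped by their call between oocyte and 1-cell embryo. Of those that were higher at the 1-cell stage 50.6% fell in the first of these steps, and of those that were lower 42.8% rose.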

How the data were processed

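The authors deposited linear probe-set intensities of 20 MOE430A arrays. Per the labels, they came from total RNA after 2 rounds of in vitro transcription. The sources used here do not name the software, background correction or detection calls. Stages were taken from the titles. From 22690 probe sets the 64 array controls were set aside. Of the other 22626, 20380 had 1 gene symbol, 691 several and 1555 none. Intensities were transformed as log2(value + 12.15), the pooled median of 48.6 divided by 4. Probe sets above 33.0, the pooled 40th percentile, on at least 4 of 20 arrays were tested (17193). All 20 arrays entered 1 fit in limma 3.58.1, R 4.3.3 (lmFit, eBayes with trend, 15 residual degrees of freedom), and a Benjamini-Hochberg adjusted p under 0.05 was a call. Errors are moderated standard errors. The probe set with the highest mean stood for a gene.

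Named genes were the 15 largest rises and falls, the largest changes of each list (at most 3 each way), and a set of known egg and embryo genes, plus those the text marks. The members, the 47 lists and the naming rule were chosen with earlier results of these data known. Probe sets with several gene symbols or none did not stand for a gene. List members without a probe set after this rule and the filter were not tested, so counts are over tested genes. Promoters are from RefSeq (GRCm38.p6), matched for 8280 of 10245 tested genes. No sample was left out, and 0 of 190 pairs of arrays held identical values. Precision is limited by 4 arrays per stage. The fit was tested on simulated data with planted changes. Scaling, constant, filter, fit and single arrays were varied. The later-stage and length summaries carry no test.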

Additional observations from a re-analysis of the deposited data

Results flagged for a closer look

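In 19 of 236 groups of 4 values examined, 1 array lay apart from the other 3 by more than Dixon's critical value for a group of 4, which chance alone passes in about 1 of 20 groups. No explanation was weighed.

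Among oocyte arrays, array 4 was high for Cox17 (2064, others 1318 to 1389), Hspa4 (919.0, others 726.7 to 746.6) and Khdc1a (309.7, others 159.3 to 174.2). Array 3 was low for Itpr2 (756.1, others 1001 to 1048), Cdc6 (380.5, others 551.3 to 561.4), Klf17 (1337, others 1390 to 1397) and Nrp1 (37.4, others 67.7 to 75.5). Array 1 was high for Cpeb1 (1179, others 944.5 to 975.5) and low for Rrm2 (584.5, others 922.5 to 1010). The 3′ to 5′ ratio of Gapdh was 2.819 on array 2 and 5.216 to 5.387 on the others.

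Among 1-cell arrays, array 4 was low for Mos (470.4, others 1155 to 1340), Papola (82.0, others 260.0 to 283.7), Orc6 (2117, others 2767 to 2921), Lbr (101.3, others 224.9 to 261.1) and Ccnl1 (809.5, others 1398 to 1516). Array 3 was low for Rpl12 (37.9, others 71.8 to 80.2) and high for Ldhc (27.8, others 10.7 to 12.2). Array 1 was low for Kif2c (408.4, others 465.5 to 476.1) and high for the cre spike-in (17320, others 10758 to 11469).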

How the results depend on the processing

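Scaling to the spike-in controls had the widest effect. It gave 49 probe sets higher and 7729 lower, and of 106 named genes 17 lost the call, 2 gained it, 14 that were called on either scale reversed, and 73 kept their side of the threshold. Of these 73, Rpl12 (-0.78), Ybx2 (-0.82), Zfp352 (-0.49) and Hira (-0.72) changed sign and were called on neither scale. Reversed log2 changes were -0.91 for Rpl37, -0.33 for Rps27l, -0.15 for Hsp90aa1, -0.24 for Oosp1, -0.76 for Gdf9, -0.19 for Bmp15, -0.40 for Dppa3, -0.28 for H1f8, -0.42 for Btg4, -0.073 for Dnmt3a, -0.015 for Orc6, -0.0083 for Actb, -0.12 for Bcl2l10 and -0.39 for Tcp11. Quantile normalization reversed Btg4 (-0.019). Gdf9 also changed sign under it (-0.26) and was called on neither of these 2 scales. The cause was not tested.

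The 5400 calls became 2420 with a 2-fold minimum, by construction. The setting with 1 probe set per symbol gave 3277 calls, while the main fit called 3270 of the 10245 genes. Fewer probe sets are counted in both, so that they lie under 5400 is by construction. Leaving out 1 array in turn gave 4679 to 5424 calls, 2255 to 2679 higher and 2372 to 2745 lower. The later-course gap in medians, -0.865 in full, was -0.283 under spike-in scaling and -1.04 to -0.831 over leave-outs. The length gap in medians, 0.168 in full, was 0.0896 over genes with 1 tested probe set and 1.02 in the highest quintile of level. Over leave-outs the stage difference of the Gapdh ratio was -0.189 to 0.126, of bioB 0.856 to 1.21 (log2), of the array median -0.0306 to 0.153 and of the percent above the filter -0.287 to 3.05. Leaving out any 1-cell array gave exact p = 0.0571 for bioB. Counts of list members called higher ran from 2 to 5 for glycolysis, 3 to 5 for calcium signalling and 2 to 6 for cholesterol synthesis. Lower counts ran from 2 to 4 for oocyte transcription factors, 3 to 5 for ubiquitin ligases, 2 to 3 for histone-modifying enzymes and 1 to 4 for cholesterol synthesis.

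With the replicate block 5402 probe sets were called, and all 106 named genes kept their call. Same-numbered arrays correlated at 0.104, 0.0193, -0.105 and -0.0133 in their deviations, so the numbers were not taken to pair arrays. The planned split by protein length was not run for want of a protein table, and genomic length, chosen after seeing the data, took its place. With 4 arrays per stage, no detection calls and a constant of 12.15, changes of dim probe sets are the least certain.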
